A study of Rattus norvegicus with 12 samples.

Results

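Nontumor liver of Long Evans Cinnamon (LEC) rats with copper-related liver damage was compared with liver that had not reached hepatitis, on 8 of the 12 arrays of the series. The diseased set held 6 arrays of LEC nontumor liver: 1 RNA pool at 26 weeks, 1 at 39 weeks and 4 nontumor arrays at 67 weeks. The undiseased set held 2 arrays, LEC liver at 4 weeks and control liver of Long Evans Agouti (LEA) rats at 67 weeks. The other 4 arrays held LEC tumors at 67 weeks and were used to see whether a difference was kept or lost in tumor tissue. Genes were taken as apart when the lowest array of one set exceeded the highest array of the other by at least 1 log2 unit, which is 2-fold. This held for 12 of 14217 genes, all higher in diseased liver.

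Each tumor or nontumor array at 67 weeks pooled RNA of 2 pairs out of 8 paired specimens, and the number of rats in the other pools is not stated. A rat may also have entered several pools, so p-values measure only the spread between these pools, which may be technical. The labels give every rat as male and every nontumor array as normal in disease status; the division into diseased and undiseased follows strain and age. The 4-week array differed from the diseased set in age and the LEA array in strain, and neither difference can be told apart from disease within 1 array. Values are log2 levels that the authors made with RMA, which subtracts background, equalizes the distributions of arrays and combines probes into probe sets. With so few arrays, every value has limited precision.

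The LEC rat is a model of Wilson disease. It carries a defect in Atp7b, the transporter that loads copper onto ceruloplasmin and exports it into bile, and copper builds up in its hepatocytes. Hepatitis follows in young adults, and survivors develop chronic liver injury with growth of bile ductules and connective tissue, and later tumors. A damaged liver is known for repair by dividing hepatocytes and by ductular cells that carry keratins of the bile duct lineage, beside activation of matrix-producing stellate cells. Oxidative stress releases the transcription factor NRF2, which drives genes for glutathione use and detoxification. In bulk liver, fewer cells of a type and less RNA per cell cannot be told apart.

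The hepatocyte products Alb, Ttr and Apoa1 were high on all 8 nontumor arrays, with Alb between 14.51 and 14.59. Atp7b stood at 9.17 on the LEA array, at 8.55 at 4 weeks and between 8.27 and 8.64 in diseased liver, and its probe set tests the label only if it lies in the altered part of the gene, which is not known here. Correlations over the 31042 probe sets, which share the platform and normalization, lay between 0.975 and 0.995 among diseased arrays and between 0.966 and 0.987 across the sets. Xist, the RNA of the silenced X chromosome, was low in the pools labelled 26 and 39 weeks (5.27 and 5.67) and reached 11.36 to 13.12 in the other 10. The Y-linked Eif2s3y was high in the same pools (8.90 and 8.18) and ran from 3.65 to 3.81 elsewhere. The pools labelled 26 and 39 weeks therefore differ from the other 10 arrays in sex-linked RNA, although the labels give all as male. The levels in these pools go with the male label. Those of the other 10 arrays, which include both undiseased arrays, go against that label. Most counts are given with and without the pools labelled 26 and 39 weeks.

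Separation of the sets was rare and went upward. The 12 genes apart and higher in diseased liver were 0.0844% of the genes, and 0 genes were apart and lower. Over probe sets, 22 were apart and higher (0.0709%) and 1 was apart and lower (0.00322%). Without a minimum gap, 1113 genes did not overlap and were higher (7.83%) and 867 were lower (6.1%). All 12 genes remained apart without the arrays labelled 26 and 39 weeks, when 18 genes were apart and higher and 3 were apart and lower. Single arrays set the size of the list: the higher count was 57 without the 4-week array, 41 without the LEA array, 39 without nontumor array 1 and 20 without nontumor array 4. The lower count was 33, 9, 3 and 0 under the same omissions. Since the minimum gap chose the 12 genes, their differences between the sets are a description and not a test.

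**Figure D1:**
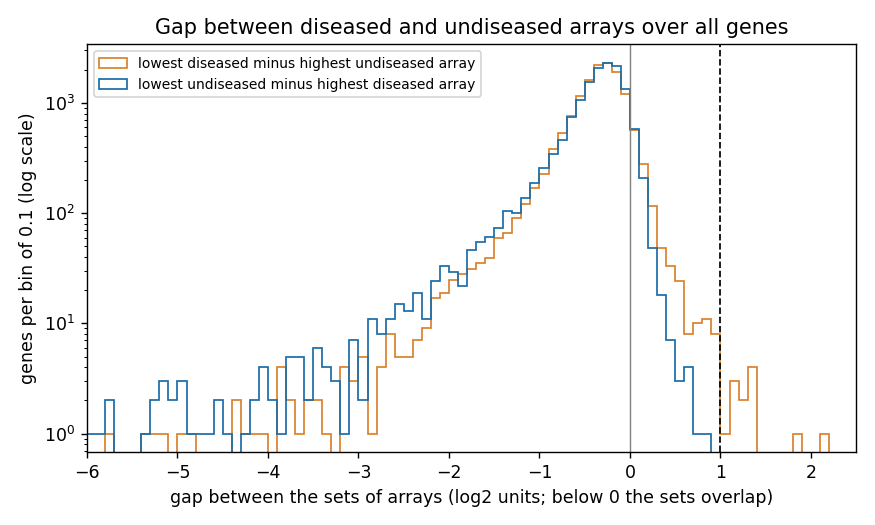
Number of genes (log scale, bins of 0.1) by the gap between the sets in log2 units, with all genes counted on each line. Orange is the lowest diseased minus the highest undiseased array. Blue is the lowest undiseased minus the highest diseased array. To the right of the dashed line at 1 lie 12 genes on the orange line and 0 on the blue line.

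Across all probe sets, limma (6 arrays against 2, Benjamini-Hochberg) called 7 probe sets higher (0.0226%) and 1 lower (0.00322%), while 1569 and 1671 had an unadjusted p under 0.05. The probe sets called higher belonged to Fabp4, Sptan1, Krt8, Clic2, Rcan2, Kifc3 and Klf6, each at an adjusted p of 0.0493; 5 of them represent their genes (0.0352% of genes), as does the 1 called lower (0.00703%). Krt8, a keratin of simple epithelia, stood at 11.03 and 11.20 on the LEA and 4-week arrays and between 12.14 and 12.62 in diseased liver. The 1 called lower was Cd14, the co-receptor through which macrophages sense bacterial lipopolysaccharide. Cd14 stood at 11.18 and 11.35 in undiseased liver and between 9.88 and 10.34 in diseased liver, and between 10.47 and 10.89 in tumors. All 8 calls sat at the edge of the threshold: without LEC 39 weeks, nontumor array 2 or nontumor array 3 there were 0 calls, without LEC 26 weeks 1, and without nontumor array 4 there were 22 higher and 1 lower. There were 77 higher and 17 lower without nontumor array 1, 29 and 53 without the 4-week array, and 4 and 2 without the LEA array. Without the arrays labelled 26 and 39 weeks together, 2 were higher and 1 was lower.

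The members of epithelial surface and cytoskeleton had the widest further rise into tumors. Tspan8, a tetraspanin that organizes membrane proteins and is found in many gastrointestinal carcinomas, stood at 6.44 on the LEA array and 6.07 at 4 weeks, the latter no higher than control probe sets for absent bacterial RNA. In diseased liver its lowest level was 8.30, its median 8.96 and its highest 10.13. In tumors Tspan8 stood at 13.44, 13.01, 13.36 and 13.47, so that the 3 sets of arrays did not overlap. Its gap was 1.87 log2 units, and the set means differed by 2.85 ± 0.42 (standard error, limma, n = 6 and 2, adjusted p = 0.0795).

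Cd24, a small glycosylated surface protein of progenitor and bile duct cells, stood at 6.27 on the LEA array and 6.32 at 4 weeks. Its diseased levels ran from 7.64 through a median of 8.91 to 9.51, and its tumor levels were 12.66, 12.67, 12.42 and 12.74. The gap was 1.31 and the means differed by 2.41 ± 0.44 (limma, adjusted p = 0.123). Krt19, the keratin that marks bile duct epithelium, gave a like picture, with 6.21 and 6.54 on the LEA and 4-week arrays. Its diseased levels had a minimum of 7.74, a median of 8.68 and a maximum of 9.73, against 12.97, 13.00, 12.95 and 13.04 in tumors. For Krt19 the gap was 1.20 and the difference 2.24 ± 0.47 (limma, adjusted p = 0.182). Nontumor arrays 1 and 4 were the lowest diseased arrays for both genes.

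Dmbt1, a secreted scavenger protein of mucosal epithelia that binds bacteria, stood at 9.38 on the LEA array and 8.75 at 4 weeks. In diseased liver it ranged from 10.76 to 12.44 with a median of 11.29, and the tumor arrays stood at 13.27, 13.18, 13.35 and 13.14. The sets did not overlap, with a gap of 1.38 and a difference of 2.39 ± 0.44 (limma, adjusted p = 0.133). Nontumor array 3 was the highest diseased array for Dmbt1, Tspan8 and Krt19.

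Jchain, the immunoglobulin joining chain that plasma cells add to polymeric IgA and IgM, had the widest gap of any gene. It stood at 8.14 on the LEA array and 7.38 at 4 weeks, against a lowest diseased level of 10.29, a median of 11.02 and a highest of 11.87. The arrays labelled 39 and 26 weeks were its highest, at 11.87 and 11.81, and the 4 nontumor arrays at 67 weeks lay between 10.29 and 11.21. Tumor levels were 13.00, 12.90, 12.99 and 12.77, above every diseased array. The gap of 2.15 log2 units is 4.44-fold, and the means differed by 3.30 ± 0.44 (limma, adjusted p = 0.0662). A dimmer Jchain probe set had a gap of 0.19 and a difference of 1.44.

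Other B-lineage genes moved little between the sets. Of 10 measured genes in the list for B and plasma cells, Jchain was the 1 member whose arrays did not overlap, and 3 did not overlap without the arrays labelled 26 and 39 weeks. The log2 of the summed level of the list lay between 12.64 and 13.15 in undiseased, 13.19 and 13.54 in diseased and 14.03 and 14.17 in tumor arrays. The B-cell markers Cd79b and Ms4a1 and the plasma cell protein Mzb1 lay between 6.58 and 7.05 in undiseased and between 6.66 and 7.16 in diseased liver, above the range for absent RNA. Mzb1 stood between 7.92 and 8.69 in tumors. The part of these cells in the Jchain difference was not tested.

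Ccn1, a secreted matricellular protein that binds integrins and responds to growth factors and mechanical load, had the narrowest gap of the 12 genes, 1.07. It stood at 7.35 on the LEA array and 7.41 at 4 weeks, and in diseased liver at a minimum of 8.48, a median of 8.83 and a maximum of 9.45. Its tumor levels were 11.11, 11.58, 11.36 and 11.27, again with no overlap among the 3 sets. The difference between diseased and undiseased liver was 1.47 ± 0.23 (limma, adjusted p = 0.0904).

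The upstream sequences of 4 of these genes are shown because all 4 genes were apart in diseased liver and higher again in tumors. They are the 250 bases before the annotated start on the gene's strand, from RefSeq on the GRCr8 build, where 5 of the 12 genes had an entry: Jchain (chr14:19822726-19822975, plus strand), Tspan8 (chr7:53330937-53331186, plus), Cd24 (chr20:48656227-48656476, plus), Ccn1 (chr2:237225690-237225939, minus) and Epdr1. Capitals mark matches to TATAAA on the gene's strand, and on both strands to TGACG (the core of cyclic AMP response elements), TGANTCA (AP-1) and GGAATG (TEAD factors).
Jchain: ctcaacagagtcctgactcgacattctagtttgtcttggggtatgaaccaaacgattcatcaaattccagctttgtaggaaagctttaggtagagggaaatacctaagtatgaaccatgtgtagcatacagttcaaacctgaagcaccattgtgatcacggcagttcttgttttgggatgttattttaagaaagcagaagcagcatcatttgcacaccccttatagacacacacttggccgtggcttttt
Tspan8: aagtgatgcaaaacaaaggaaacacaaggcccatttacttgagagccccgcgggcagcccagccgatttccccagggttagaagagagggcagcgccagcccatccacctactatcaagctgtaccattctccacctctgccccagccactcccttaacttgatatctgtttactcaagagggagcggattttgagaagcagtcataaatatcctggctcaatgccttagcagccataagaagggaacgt
Cd24: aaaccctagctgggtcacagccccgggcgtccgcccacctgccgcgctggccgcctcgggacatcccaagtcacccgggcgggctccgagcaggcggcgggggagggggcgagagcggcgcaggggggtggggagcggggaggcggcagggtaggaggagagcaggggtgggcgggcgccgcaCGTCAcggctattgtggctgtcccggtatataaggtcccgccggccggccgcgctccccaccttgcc
Ccn1: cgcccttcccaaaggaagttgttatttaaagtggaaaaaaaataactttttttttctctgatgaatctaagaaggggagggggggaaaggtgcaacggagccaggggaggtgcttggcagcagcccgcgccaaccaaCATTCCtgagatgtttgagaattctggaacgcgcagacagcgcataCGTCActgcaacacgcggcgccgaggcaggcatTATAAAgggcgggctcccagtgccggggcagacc
The Ccn1 sequence held TATAAA at 29 to 34 bases before the start, TGACG on the opposite strand at 63 to 67 and GGAATG on the opposite strand at 108 to 113. The Cd24 sequence held TGACG on the opposite strand at the same distance, 63 to 67 bases. The Jchain and Tspan8 windows held none of the 4 motifs. Of all promoter windows of this length, 8.06% held TATAAA, 18.2% TGACG, 6.34% TGANTCA and 12.1% GGAATG. A match describes letters, and binding was not measured.

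Among members that act inside the cell, Cryab, a small heat shock protein that holds damaged proteins in solution, stood at 8.11 on the LEA array and 7.66 at 4 weeks. Its diseased levels ran from 9.48 through a median of 10.80 to 11.37. Tumor levels were 12.18, 12.12, 11.21 and 12.27, of which tumor array 3 lay within the diseased range. The gap was 1.36 and the difference 2.75 ± 0.46 (limma, adjusted p = 0.103).

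Nol3, an inhibitor of apoptosis known as ARC, stood at 7.29 on the LEA array and 6.62 at 4 weeks and between 8.64 and 9.98 in diseased liver, with a median of 9.44. Its tumor levels of 8.40, 7.63, 8.59 and 7.73 lay below every diseased array and above both undiseased arrays. The gap between diseased and undiseased liver was 1.35 and the difference 2.37 ± 0.33 (limma, adjusted p = 0.0674).

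Mybl1, a MYB family transcription factor best known in male germ cells, stood at 6.70 on the LEA array and 6.03, within the range for absent RNA, at 4 weeks. In diseased liver it had a minimum of 7.81 on nontumor array 1, a median of 9.68 and a maximum of 10.19. Tumor levels were 8.08, 7.51, 8.78 and 7.25, between the undiseased arrays and the other 5 diseased arrays. The gap was 1.11 and the difference 3.15 ± 0.54 (limma, adjusted p = 0.11). Pkia, an inhibitor of cyclic AMP-dependent protein kinase, stood at 6.29 on the LEA array and 5.87, again within that range, at 4 weeks, and from 7.57 to 9.63 in diseased liver, with a median of 9.13. Its tumor levels, 9.55, 9.46, 8.62 and 9.49, fell in the diseased range. Pkia had a gap of 1.27 and a difference of 2.81 ± 0.49 (limma, adjusted p = 0.11), while its other probe sets had gaps of 0.40 and -0.19.

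Fabp4, a fatty acid carrier of adipocytes and macrophages, was the 1 member called by limma. It stood at 5.64 on the LEA array, within the range for absent RNA, and 6.19 at 4 weeks, and between 7.34 and 8.22 in diseased liver with a median of 7.77. The spread of its diseased arrays, an SD of 0.30 (n = 6), was the smallest of the 12 genes. Its gap was 1.15 and its difference 1.85 ± 0.22 (limma, adjusted p = 0.0493). The call was lost without LEC 26 weeks, LEC 39 weeks, LEA, or nontumor array 2 or 3 (adjusted p between 0.107 and 0.184), and without both of the arrays labelled 26 and 39 weeks (0.128). The fat cell markers Adipoq and Plin1 lay between 6.28 and 7.24 in undiseased and between 6.33 and 6.93 in diseased liver. In the list for pancreas, fat and muscle, 1 of 20 genes was higher without overlap and 3 were lower, and its log2 summed level lay between 12.05 and 13.05 in undiseased, 11.70 and 12.30 in diseased and 11.80 and 12.07 in tumor arrays. The part of fat cells in the Fabp4 difference was not tested.

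Epdr1, a secreted ependymin-related protein, stood at 5.94 and 5.87 on the LEA and 4-week arrays, both within the range for absent RNA, so its difference is not exact. It varied most among diseased arrays, from 7.05 on nontumor array 1 to 9.82 on nontumor array 3 with a median of 8.57 and an SD of 1.04 (n = 6). The tumor arrays stood close together at 8.39, 8.25, 8.47 and 8.41. Its gap was 1.11 and its difference 2.63 ± 0.62 (limma, adjusted p = 0.212).

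**Figure D2:**
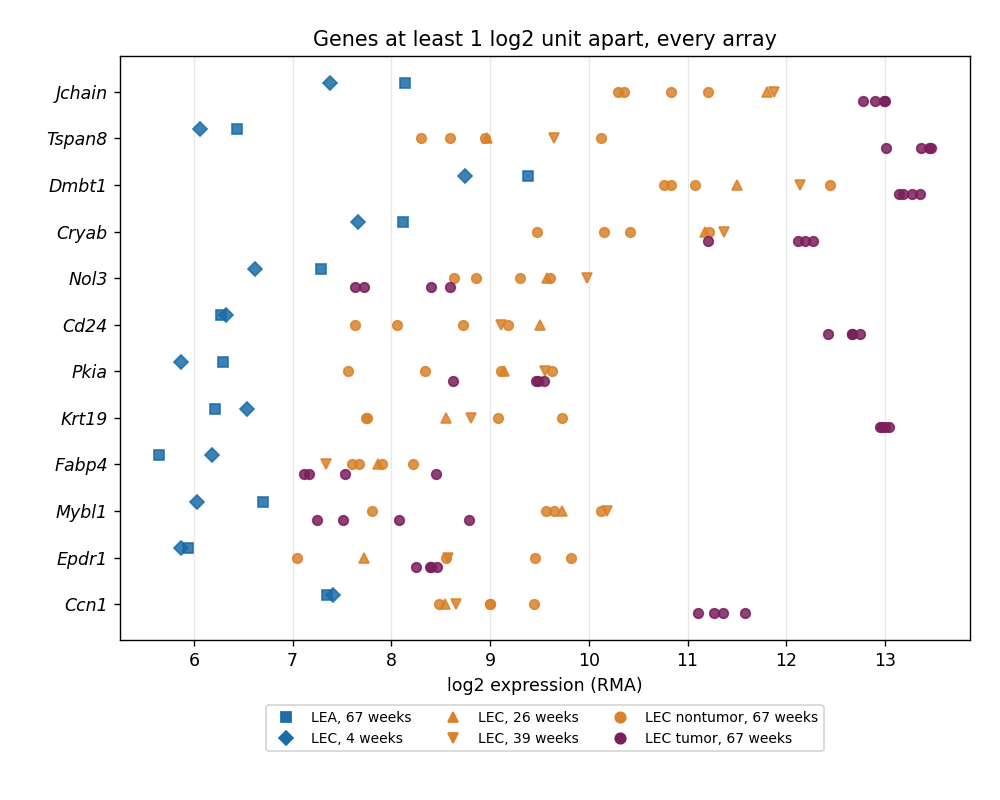
Log2 level of each of the 12 genes on every array, one symbol per array, with blue for undiseased, orange for diseased nontumor and purple for tumor arrays. Every orange symbol lies at least 1 unit above both blue symbols of its gene, and the purple symbols of Tspan8, Cd24 and Krt19 lie above 12.

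The diseased arrays did not follow a single order over the 12 genes. Nontumor array 1 was the lowest diseased array for 7 genes and nontumor array 4 for 4, and the array labelled 39 weeks for Fabp4; nontumor array 3 was the highest for 6, the array labelled 39 weeks for 4, and nontumor array 4 and the array labelled 26 weeks for 1 each. The level at 39 weeks exceeded that at 26 weeks for 10 genes, and the median at 67 weeks lay below both for 9. The LEA array exceeded the 4-week array for 8. No diseased array of any of the 12 genes fell in the range for absent RNA. For comparison, the range over the 6 diseased arrays had a median of 0.46 over all genes, and the LEA and 4-week arrays differed by at least 1 for 328 genes. By limma in the contrast that chose them, 1 of the 12 genes was called. The number was 0 after quantile normalization again, array median subtraction or array weights. It was also 0 without LEC 26 weeks, LEC 39 weeks, both, nontumor array 2 or 3, or LEA, and 1 without the 4-week array or with a trended robust prior. It was 8 without nontumor array 1, 4 without nontumor array 4, and 2 of 11 without dim probe sets. With all 12 arrays fitted it was 10 with 3 set means. Over all 31042 probe sets, 77 were called higher without nontumor array 1, 22 without nontumor array 4 and 76 with 3 set means. Without dim probe sets it was 17 of 15521. Since the values in these fits chose the 12 genes, the counts describe the genes and do not test them.

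Genes at the edge of the minimum gap were named after their values were seen. Just inside lay Ccn1 (1.07), Epdr1 and Mybl1 (1.11 each), and just outside Akr1c1 (0.9995), Nipal2 (0.99), Akr1c13 (0.98), Kifc3 and Celf5 (0.95 each). Akr1c1, an aldo-keto reductase that acts on steroids and carbonyls, stood at 6.14 on the LEA array but 10.25 at 4 weeks, and between 11.25 and 12.03 in diseased liver. Akr1c13, of the same family, stood at 9.89 and 9.83 in undiseased liver and between 10.87 and 11.78 in diseased liver, and between 7.86 and 9.19 in tumors. On the lower side the nearest were Cd14 (0.84), Rab40b (0.72), Ppp1r3b (0.69), Clybl and Mest (0.64 each). Ppp1r3b, which targets a phosphatase to glycogen, stood at 11.61 and 11.54 in undiseased liver, between 10.20 and 10.85 in diseased liver and between 6.20 and 9.25 in tumors.

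Of the 22 probe sets apart and higher, 12 represent the genes above, 4 belong to genes represented by a brighter probe set, 5 have no gene listed and 1 has several. The 4 were 1 each for Snx10, a sorting nexin of endosomes, and Rcan2, an inhibitor of calcineurin, and 2 for the zinc finger factor Klf6. The Snx10 probe set stood at 4.38 and 4.45 on the LEA and 4-week arrays, within the range for absent RNA, and between 6.46 and 8.56 in diseased liver, a gap of 2.01. The brighter Snx10 probe set had a gap of 0.72. Klf6 had gaps of 1.10 and 1.03 by these probe sets and 0.28 by the brightest, and Rcan2 had 1.20 against 0.44. The 1 probe set apart and lower, with no gene listed, stood at 11.16 on the LEA array and 8.31 at 4 weeks, between 6.15 and 6.67 in diseased liver and between 5.89 and 6.10 in tumors.

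The tumor arrays kept the rise for most of the 12 genes. A rise was taken as kept where all 4 tumor arrays lay at least 1 log2 unit above both undiseased arrays, and as lost where all 4 lay on the undiseased side of the midpoint between the sets. It was kept for 9 of the 12 genes and lost for 0, beside 9.43% of all genes with tumor arrays that far above both undiseased arrays and 4.68% that far below. For Nol3, Fabp4 and Mybl1 it was neither, with the lowest tumor array 0.34, 0.93 and 0.55 above the highest undiseased array. For Jchain, Tspan8, Dmbt1, Cd24, Krt19 and Ccn1 every tumor array lay above every diseased array, 6 of 12 genes against 32.3% of all genes. No gene of the 12 had a tumor array below an undiseased one. Of the 22 probe sets apart and higher, 18 were kept, 3 were neither and 1 was lost, the Rcan2 probe set, at 8.13, 7.66, 8.06 and 8.10 in tumors against 8.87 to 9.57 in diseased liver and 6.67 and 7.67 in undiseased liver. The tumor arrays took no part in choosing the genes, but these comparisons share the undiseased or the diseased arrays with that choice.

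**Figure D3:**
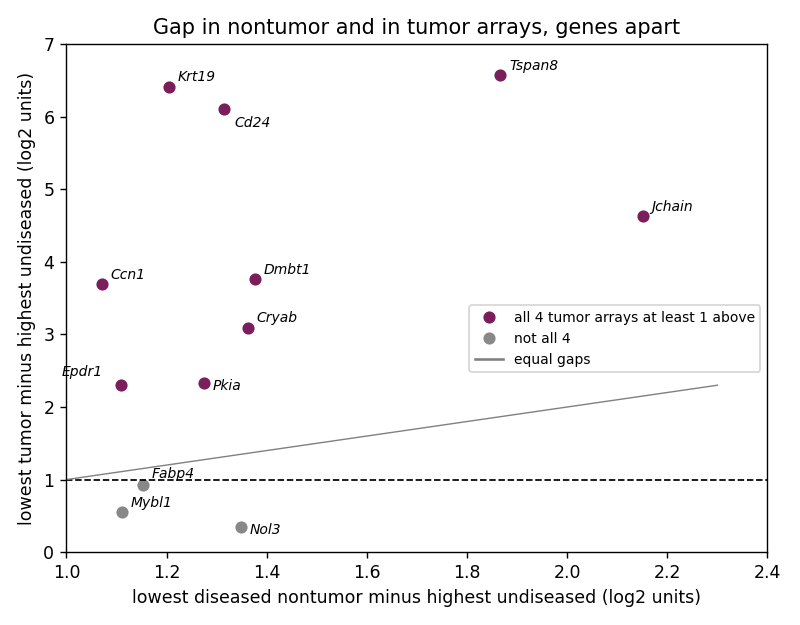
For each of the 12 genes, the lowest tumor array minus the highest undiseased array against the lowest diseased nontumor array minus the highest undiseased array, in log2 units. Purple points (9) lie above the dashed line at 1, where the rise is kept, and grey points (Nol3, Fabp4, Mybl1) below it; the grey line marks equal gaps.

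The 4 tumor arrays were then tested against the 4 nontumor arrays at 67 weeks with limma, where 38.8% of all genes were called higher and 29.2% lower. These nontumor arrays also took part in choosing the 12 genes by their high levels. The calls among the 12 genes are therefore a description and not an independent test. Of the 12 genes, 7 were higher in tumors: Krt19 (4.41 ± 0.41), Tspan8 (4.33 ± 0.35), Cd24 (4.23 ± 0.29), Ccn1 (2.35 ± 0.19), Jchain (2.25 ± 0.19), Dmbt1 (1.96 ± 0.33) and Cryab (1.63 ± 0.36), with the highest adjusted p, 0.0043, for Cryab. Nol3 was lower (-1.01 ± 0.27, adjusted p = 0.0107), as was Mybl1 (-1.38 ± 0.51, adjusted p = 0.0387). The Mybl1 call was lost when nontumor array 2, 3 or 4 or tumor array 1, 2 or 4 was left out (adjusted p between 0.0648 and 0.102). Pkia (0.62 ± 0.42, adjusted p = 0.218), Fabp4 (-0.28 ± 0.29, 0.404) and Epdr1 (-0.34 ± 0.51, 0.576) did not pass the test. Fabp4 was called lower without tumor array 3 (-0.58, adjusted p = 0.0191) and Epdr1 without nontumor array 1 (-0.90, adjusted p = 0.0196). Over all probe sets, 9834 were higher (31.7%) and 10011 lower (32.2%), and the split was 8524 to 13052 after array medians were subtracted, which moved the median difference from -0.04 to -0.14. The 7 and 2 calls among the 12 genes held under that scaling.

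To place these genes among the processes of the damaged liver, members of gene lists were counted where the diseased and undiseased arrays did not overlap, with no minimum gap. The background is 7.83% of genes higher and 6.1% lower, or 10.8% and 13.3% without the arrays labelled 26 and 39 weeks, and the median difference over all genes was -0.01. Genes named from the lists beside the 12 were chosen after their values were seen.

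Bile duct and progenitor genes had the largest share. Of 15 measured, 9 did not overlap and were higher (60.0%), 0 were lower, and the median difference was 0.91. Krt19 and Cd24, which the minimum gap chose on these same arrays, are among them. So are Krt8 and Krt18, which were already bright in undiseased liver. On the LEA and 4-week arrays Krt8 stood at 11.03 and 11.20 and Krt18 at 12.04 and 11.46. The count was also 9 without the arrays labelled 26 and 39 weeks. Cftr, the chloride channel of bile duct epithelium, stood at 6.58 and 6.82 on the LEA and 4-week arrays and between 7.68 and 8.92 in diseased liver. The mucin Muc1 stood at 6.82 and 7.02 and between 7.63 and 8.89. Krt7, another bile duct keratin, did not separate the sets, at 6.49 and 6.67 against 6.07 to 6.77, and reached 10.68 to 11.39 in tumors. Epcam, the adhesion molecule of progenitor cells, overlapped between the sets, with 9.58 on nontumor array 4 and 9.94 at 4 weeks. The list's log2 summed level lay between 13.15 and 13.59 in undiseased, 14.01 and 14.43 in diseased and 16.06 and 16.42 in tumor arrays. The defining markers Krt7, Krt19 and Epcam lay above the range for absent RNA. Itgb6, among the 9 genes, lay within that range on the LEA and 4-week arrays (5.24 and 5.16). It also did so at 26 and 39 weeks (5.80 and 5.83) and on nontumor array 1 (5.61). All 9 genes were called higher in tumor than in nontumor liver, as were 14 of all 15 measured. The part of bile duct cells in the Krt19, Cd24 and Tspan8 differences was not tested.

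Of 38 matrix and stellate cell genes, 9 did not overlap and were higher (23.7%) and 0 were lower, with a median difference of 0.42. Without the arrays labelled 26 and 39 weeks the counts were 9 and 1. Dcn, decorin, a collagen-binding proteoglycan, stood at 8.18 and 8.60 in undiseased liver and between 9.31 and 10.62 in diseased liver. Ccn2, a relative of Ccn1 that promotes fibrosis, stood at 7.28 and 8.21 against 8.46 to 10.03. The fibrillar collagens Col1a1 and Col3a1 overlapped, since the 4-week array was high, at 8.90 for Col1a1 against 6.68 in LEA and 8.26 to 9.27 in diseased liver. All 9 genes were called higher in tumors, as were 35 of all 38 measured. The log2 summed level of the list was 16.77 to 16.95 in tumors, 14.67 to 15.14 in diseased and 14.71 to 14.96 in undiseased liver. The part of stellate cells in the Ccn1 difference was not tested.

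Of 42 cell cycle genes, 14 did not overlap and were higher (33.3%), 0 were lower and the median difference was 0.53. The counts were 14 and 2 without the arrays labelled 26 and 39 weeks. Cyclin D1, Ccnd1, which carries cells into division, stood at 9.98 and 10.28 in undiseased liver and between 11.13 and 12.00 in diseased liver. Mki67, present in dividing cells, stood at 5.93 and 5.73, within the range for absent RNA, and at 8.53 and 8.46 at 26 and 39 weeks, then at 6.47, 6.90, 8.39 and 8.44 on nontumor arrays 1 to 4. Nontumor arrays 1 and 2 were also the lowest for the median of the list, at 7.36 and 7.25 against 7.16 and 7.29 in undiseased and 8.01 to 8.23 on the other diseased arrays. Of the 14 genes, 11 were called higher in tumor than nontumor liver and 0 lower, beside 26 higher and 2 lower of all 42. Aurka, Birc5 and Kif11 were not called, with differences of -0.12, 0.12 and 0.09.

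Part of the NRF2 target list separated the sets. Of 22 measured, 8 did not overlap and were higher (36.4%) and 0 were lower, with a median difference of 0.57; the counts were 10 and 2 without the arrays labelled 26 and 39 weeks. Hmox1, which breaks down heme, stood at 11.24 and 10.65 on the LEA and 4-week arrays, between 11.36 and 12.26 in diseased liver and between 9.52 and 10.49 in tumors. Glutathione reductase, Gsr, stood at 9.06 and 9.39, then between 9.72 and 10.29, and between 8.93 and 9.38 in tumors. By limma, 14 of the 22 genes were lower in tumor than nontumor liver and 6 higher. Of the 8 that did not overlap, 7 were lower (Hmox1, Txnrd1, Gstm1, Akr7a3, Ephx1, Gsr and Osgin1). The other, Gpx2, a glutathione peroxidase of epithelial cells, was higher by 4.12 ± 0.48 (adjusted p = 0.000121). Conjugation enzymes gave 7 of 31 higher (22.6%) and 2 lower, and 6 of those 7 were lower in tumors, as were 28 of all 31. Among the 6 were the glutathione transferases Gstm1, Gstm2, Gstm3 and Gstm4, whose sequences are alike enough that probes may share signal. Among 17 antioxidant enzymes 5 did not overlap and were higher and 0 were lower, with a median difference of 0.05. The gaps were as small as 0.0006 for Txn1 and 0.0059 for Prdx5, and by limma 3 of the 17 were higher at an unadjusted p under 0.05. The widest gap, 0.83, was that of the plasma peroxidase Gpx3, at 9.09 and 8.87 against 9.92 to 10.91 and 13.08 to 13.18 in tumors.

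Among lists with at least 10 measured genes, the largest shares lower were 33.3% for perivenous genes, 26.2% for genes of the urea cycle and amino acid breakdown, followed by 3 of 15 endothelial genes. These shares count gaps as small as 0.0027 (Sardh), 0.01 (Upb1) and 0.04 (Glul), beside 0.56 for Oat. By limma, 1 of 12 perivenous and 4 of 42 urea cycle and amino acid genes were lower at an unadjusted p under 0.05. Over all 14217 genes the count was 677. Of 42 genes of the urea cycle and amino acid breakdown, 11 did not overlap and were lower (26.2%) and 1 was higher, with a median difference of -0.20; without the arrays labelled 26 and 39 weeks the counts were 17 and 1. Oat, which breaks down ornithine, stood at 12.69 and 12.09 in undiseased liver, at 11.53 and 11.41 at 26 and 39 weeks, and at 11.26, 11.27, 9.85 and 8.94 on nontumor arrays 1 to 4. Otc, of the urea cycle, stood at 12.67 and 12.61 against 11.92 to 12.33. Of the 11 genes, 9 were called lower in tumor than nontumor liver, Glul was called higher (0.72 ± 0.19) and Oat was not called. Over all 42 genes, 40 were called lower and 1 higher. Of 12 perivenous genes, 4 were lower, Glul, Cyp1a2, Oat and Tbx3, and Ccnd1 was higher, and the counts were 6 and 1 without the arrays labelled 26 and 39 weeks. Glul and Oat stand in both lists. Fatty acid and triglyceride synthesis had 3 of 23 lower (13.0%, Acaca, Elovl5 and Mlxipl), 0 higher and a median difference of -0.60, the lowest of all lists. Without the arrays labelled 26 and 39 weeks 3 were lower, near the background of 13.3%, and 1 was higher. By limma, 10 of the 23 synthesis genes were lower and 1 was higher at an unadjusted p under 0.05. Fatty acid oxidation had 1 of 29 lower (3.45%) and 0 higher. Among 21 general hepatocyte markers 1 was higher and 2 were lower, with a median of -0.11.

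**Figure D4:**
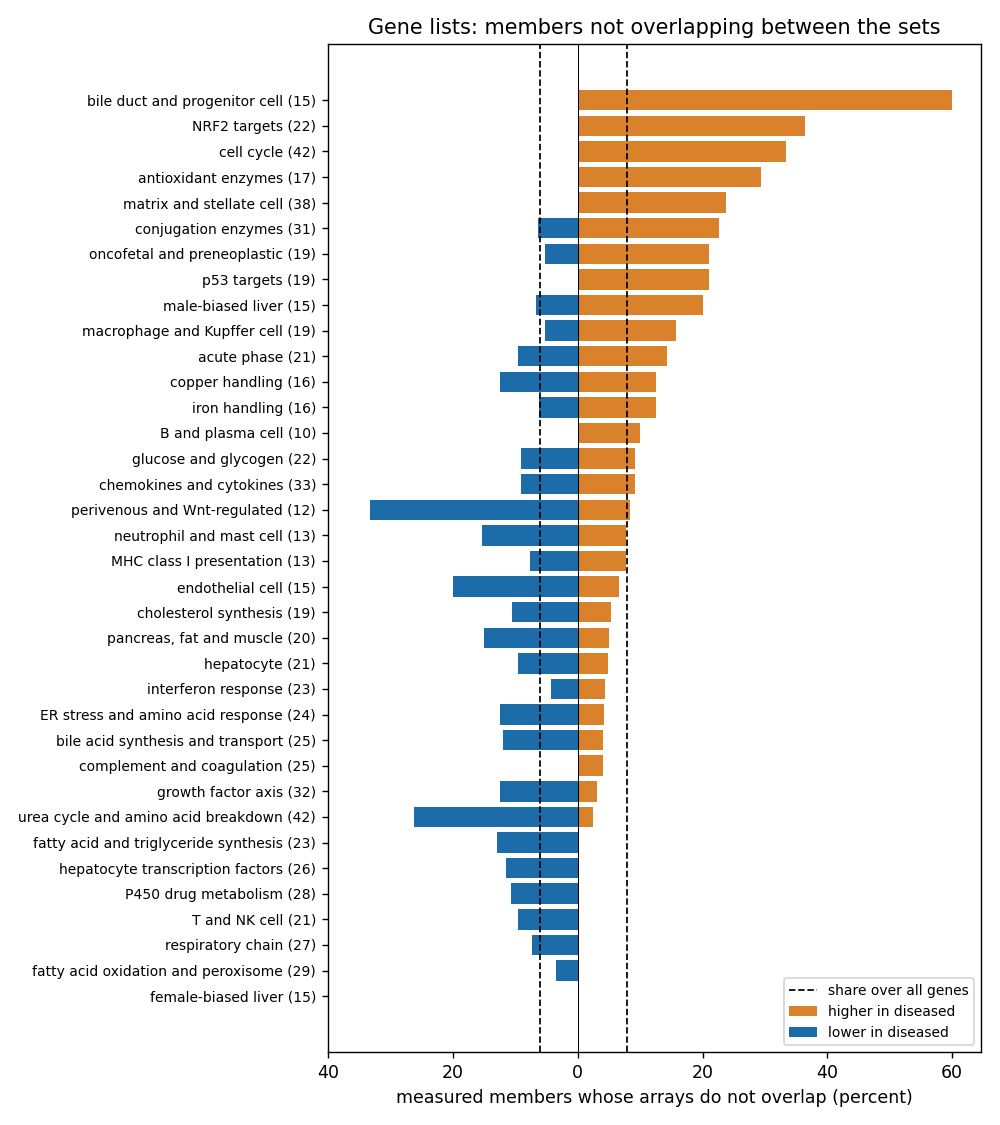
Percent of the measured members of each gene list (number in brackets, lists of at least 10) whose diseased and undiseased arrays do not overlap, orange to the right for higher and blue to the left for lower in diseased liver. Dashed lines mark the shares over all genes, 7.83% and 6.1%; bile duct and progenitor genes reach 60.0% higher and perivenous genes 33.3% lower.

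**Figure D5:**
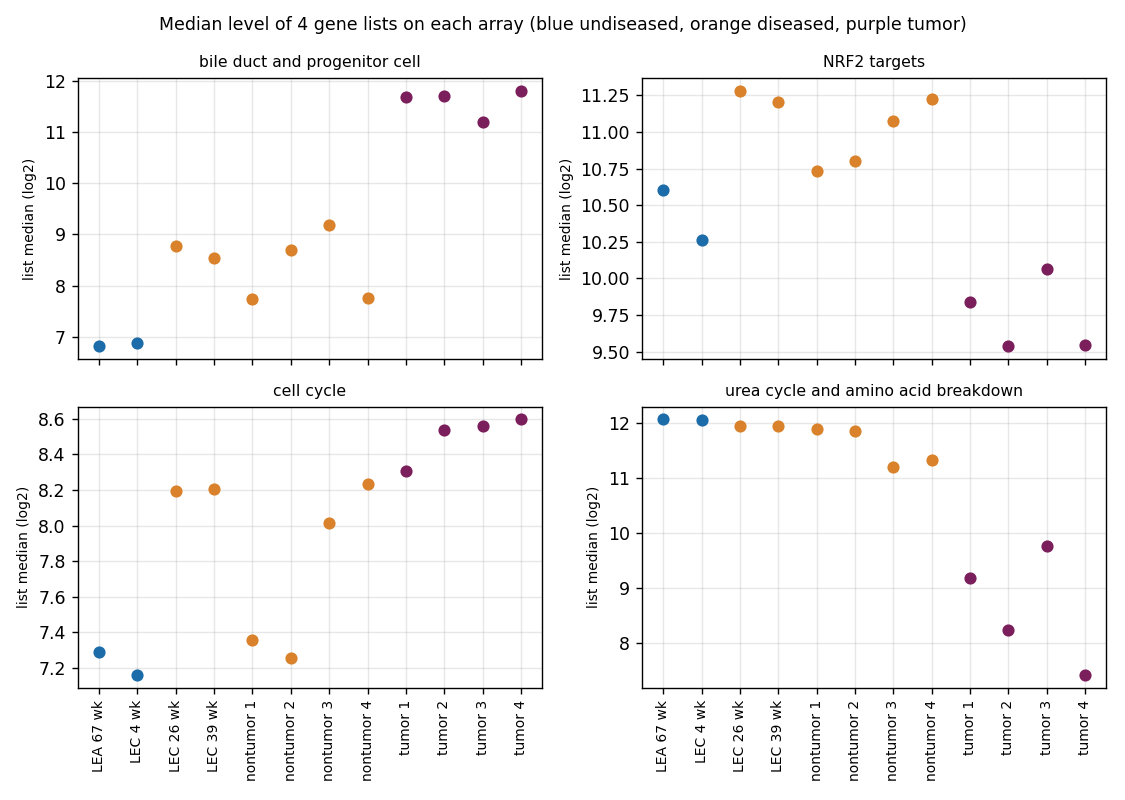
Median log2 level of 4 gene lists on each of the 12 arrays, with blue for undiseased, orange for diseased nontumor and purple for tumor arrays; each panel has its own axis. Bile duct genes stand at 6.82 to 6.88, 7.74 to 9.18 and 11.19 to 11.81 in the 3 sets, while NRF2 targets stand at 10.26 to 10.60, 10.74 to 11.28 and 9.54 to 10.06.

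Lists for immune and other cells were counted in the same way. T and NK cell genes had 0 of 21 higher and 2 lower (9.52%), with the same counts without the arrays labelled 26 and 39 weeks. The macrophage list had 3 of 19 higher (15.8%) and 1 lower, and 6 higher and 1 lower without those arrays. Neutrophil and mast cell genes had 1 of 13 higher and 2 lower (15.4%), and 4 higher and 2 lower without them. The neutrophil gene S100a8 stood at 7.84 on the LEA array and between 8.40 and 9.31 on the nontumor arrays. It was within the range for absent RNA at 4 weeks (5.70) and in the 26-week and 39-week pools (6.20 and 6.07). The interferon list had 1 of 23 in each direction, and 6 higher and 1 lower without those arrays. Endothelial genes had 1 of 15 higher and 3 lower, against 1 and 4 without them, and red blood cell genes had 0 of 8 in both directions, against 0 and 1. Sex-biased liver genes, which follow growth hormone secretion, had 3 of 15 higher and 1 lower among male-biased and 0 of 15 in both directions among female-biased genes. Without the arrays labelled 26 and 39 weeks the counts were 3 and 1, and 0 and 1. The female-biased list had a median of 12.41 on the LEA array and 10.35 at 4 weeks. Its median was 8.39 and 8.30 in the 26-week and 39-week pools and 10.44 to 12.28 on the nontumor arrays at 67 weeks. Obp3, a male-biased gene, stood at 12.82 in the 26-week and 12.98 in the 39-week pool and between 7.01 and 9.56 on the nontumor arrays, against 6.23 and 6.48 in undiseased liver.

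Genes known for copper, iron and tumors of this model were looked up whatever their gap, and none was apart. Among the 3 metallothioneins, which bind copper, 0 did not overlap: Mt2A stood at 12.83 on the LEA array and 13.98 at 4 weeks against 13.88 to 14.39, and Mt1 at 8.53 and 8.07 against 7.81 to 8.59. Ceruloplasmin, Cp, stood at 13.86 and 13.30 against 13.41 to 13.94. Hamp, the iron hormone hepcidin, stood at 13.49 and 12.52 against 12.84 to 13.72, and between 7.27 and 11.40 in tumors. Of the markers of preneoplastic liver, Ggt1 did not overlap, by a gap of 0.02 (8.22 and 8.78 against 8.80 to 10.91). Gstp1 stood at 10.39 and 9.69 against 10.24 to 12.50, Gpc3 at 6.83 and 7.68 against 7.49 to 8.57 and Afp at 9.54 and 8.75 against 9.17 to 9.71. In tumors Gstp1 stood at 12.65 to 12.75, Gpc3 at 9.96 to 10.54 and Afp at 5.84 to 7.59.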

How the data were processed

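Liver RNA was hybridized to 12 Affymetrix rat arrays. The values are log2 expression values deposited by the authors, which the submitters' processing notes ascribe to RMA and R 2.6.1; whether all arrays were normalized together is not stated. Groups came from sample titles. The table holds 31099 probe sets, 57 of them controls that were not tested; 20826 of the other 31042 had a single gene in the platform annotation, 436 several and 9780 none listed, and 20758 Entrez identifiers matched RefSeq. Each of 14217 genes was represented by its brightest probe set, by the mean of 12 arrays. Gaps were taken between the lowest and highest arrays of the sets. Levels were called absent when at or below the highest bacterial control probe set of that array.

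Two-sided tests used limma 3.58.1 in R 4.3.3 with Benjamini-Hochberg adjustment over 31042 probe sets at 0.05. A permutation test of 6 against 2 arrays cannot give a one-sided p below 0.0357. The test was tested on simulated data. Gene lists numbered 40, with 832 of 945 entries measured. Named were the 15 widest gaps in each direction, up to 4 apart per list, up to 8 kept and 8 lost in tumor, and always Alb, Atp7b, Hamp, Cp, Mt1, Mt2A, Afp, Gpc3, Ggt1 and Gstp1; all others were chosen after seeing values. The members, lists and rules were chosen with earlier results of these data known. Counts of list members without the arrays labelled 26 and 39 weeks, and counts over probe sets, were added after seeing the data. Alternatives were other scalings, removal of dim probe sets, other gaps, gene means, other models and leaving out arrays.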

Additional observations from a re-analysis of the deposited data

Results flagged for a closer look

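In 36 sets of 4 or 6 arrays tested for the 12 genes, 3 arrays stood far from the others of their set, where chance gives about 1 in 20. Tumor array 3 was the lowest tumor array for Cryab, at 11.21 with the next at 12.12, and for Pkia, at 8.62 with the next at 9.46. Nontumor array 1 was the lowest of the 6 diseased arrays for Mybl1, at 7.81 with the next at 9.57.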

How the results depend on the processing

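The counts of genes apart (12 higher, 0 lower; 9 kept, 0 lost in tumors) rested on the minimum gap: with a gap above 0 there were 1113 higher (871 kept, 152 lost) and 867 lower (637 kept, 130 lost), and with a gap of at least 2 log2 units 1 higher, Jchain, which was kept. At a gap above 0 or of at least 2 log2 units, the rule for kept used that gap in place of 1 log2 unit. With a gap above 0, kept therefore means only that the tumor arrays lay beyond both undiseased arrays. Quantile normalization again gave 15, subtraction of array medians 14 with 1 lost in tumors, removal of dim probe sets 11 (without Fabp4) and averaging a gene's probe sets 12 (Snx10 in place of Pkia). Without the arrays labelled 26 and 39 weeks, 3 were lower, all 3 kept, and 1 of the 18 higher was lost. When each array was left out in turn, genes apart and higher ranged from 12 to 57 (9 to 42 kept, 0 to 8 lost) and lower from 0 to 33 (0 to 27 kept, 0 to 2 lost). The limma calls of 7 higher and 1 lower became 0 and 0 after quantile normalization again, array median subtraction or array weights. They were 17 higher without dim probe sets, 76 and 19 with 3 set means over 12 arrays, 208 and 84 with 6 group means, 2 lower with a trended robust prior, and 2 higher without the arrays labelled 26 and 39 weeks. Leaving out each array gave 0 to 77 higher and 0 to 53 lower. For tumor against nontumor, the calls of 9834 higher and 10011 lower became 3820 lower without dim probe sets, where fewer probe sets were tested, and 3424 and 1613 at 2-fold or more; leaving out each array gave 8921 to 9913 higher and 8420 to 10060 lower. The title numbers 1 to 4 are shared by tumor and nontumor arrays, and whether they pair the pools is not stated. Deviations of same-numbered arrays from their group means correlated at 0.05, 0.14, -0.08 and 0.14, and those of differently numbered arrays at -0.14 to 0.11. The same-numbered nontumor array correlated highest for tumor arrays 1, 2 and 4 but not for tumor array 3. These values do not settle the pairing, and the numbers were used as pairs only in an alternative fit, the replicate block. With the replicate block 9698 were higher and 9259 lower, and the calls among the 12 genes were again 7 and 2. The Epdr1 difference between tumor and nontumor liver ranged from -0.90 to 0.023 as arrays were left out, changing sign without nontumor array 3. Apart from fewer probe sets or arrays, the cause of these changes was not tested. Genes within the range of absent controls have no exact level.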
